A study of Mus musculus with 17 samples.

Results

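The genes described here are 10 CXC chemokines, Cxcl1, Cxcl2, Cxcl3, Cxcl5, Cxcl15, Cxcl9, Cxcl10, Cxcl12, Cxcl14 and Cxcl16, taken by symbol from the 55421 genes of a total RNA-Seq count table of cultured mouse lung fibroblasts. All mice carried the floxed Ephb4 allele on both chromosomes and a tamoxifen-inducible Cre driven by Col1a2 (Ephb4f/f;Col1a2-CreERT2), so Ephb4, which encodes a receptor tyrosine kinase, can be removed from Col1a2-expressing cells and is left in place in others. At 4 weeks of age the mice were given either corn oil, which left Ephb4 intact (Ephb4 control), or 4-hydroxytamoxifen at 1 mg per day, over 5 days, which is meant to delete it (Ephb4 CKO). At 6 weeks they received PBS or 1.2 U/kg of bleomycin, an injurious agent after which lungs scar, and lung cells were taken on day 14 and cultured to the first passage. The 17 libraries, each from 1 mouse, comprised 8 Ephb4 controls (4 after PBS, 4 after bleomycin) and 9 Ephb4 CKO mice (5 after PBS, 4 after bleomycin). Mice are numbered within their group only to name them.

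CXC chemokines are small secreted proteins, or in the case of Cxcl16 a membrane-bound one, that direct leukocytes to tissue through G protein-coupled receptors. Cxcl1, Cxcl2, Cxcl3, Cxcl5 and Cxcl15 carry the ELR motif and draw neutrophils, with Cxcl1, Cxcl2, Cxcl3 and Cxcl5 acting through Cxcr2. Genes of this class are typical targets of NF-kB in cells exposed to IL-1 or TNF. Cxcl9 and Cxcl10 are induced by interferons and attract activated T cells through Cxcr3. Cxcl12 is produced by stromal cells such as fibroblasts and binds Cxcr4 and the scavenging receptor Ackr3, Cxcl14 is a tissue-resident chemokine whose receptor is less well defined, and Cxcl16 is shed from the cell surface by Adam10 and Adam17 and binds Cxcr6. In the lung, alveolar macrophages and epithelial cells are further sources of several of these ligands.

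Of the 10 genes, 7 lie on chromosome 5 (GRCm38 coordinates, GENCODE M21 annotation). Cxcl5 (90759360 to 90761624), Cxcl3 (90786103 to 90789600), Cxcl15 (90794534 to 90803067), Cxcl1 (90891241 to 90893115) and Cxcl2 (90903871 to 90905938) are all on the forward strand within 146.6 kb, a stretch that also holds Ppbp and Pf4. Cxcl9 (92321347 to 92328079) and Cxcl10 (92346638 to 92348889), on the reverse strand, form a separate stretch of 44.14 kb with Cxcl11. Cxcl12 lies on chromosome 6 (117168535 to 117181367, forward), Cxcl14 on chromosome 13 (56288643 to 56296551, reverse) and Cxcl16 on chromosome 11 (70453983 to 70459984, reverse). Cxcl2 and Cxcl3 share 101 stretches of 75 bases, the read length, which is 4.57% of the stretches of Cxcl2 and 2.78% of those of Cxcl3, and Cxcl5 shares 0.571% of its stretches with genes outside the family, so reads from these stretches could be assigned to either gene. The other 7 members shared none.

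RefSeq promoter windows (GRCm38.p6, 250 bases before to 50 after the start) were at hand for 8 of the 10 genes, all but Cxcl5 and Cxcl16. They were searched on both strands for the NF-kB consensus and for the core of the interferon-stimulated response element, GAAANNGAAA, since NF-kB and interferon genes are followed below. The NF-kB consensus was found in 4 of the 8, Cxcl1, Cxcl2, Cxcl3 and Cxcl10, against 8.46% of 32851 mouse promoter windows of the same length. The interferon core was found in Cxcl10 and Cxcl14, against 3.44% of all windows. The 250 bases before the start of the 4 genes are shown because 3 of them are ELR chemokines of one cluster with the same NF-kB stretch, and Cxcl10 is the only window of the 8 holding both motifs. Capitals mark the motif matches and each sequence reads 5′ to 3′ on the gene's own strand.
Cxcl1, chr5:90890995-90891244, forward: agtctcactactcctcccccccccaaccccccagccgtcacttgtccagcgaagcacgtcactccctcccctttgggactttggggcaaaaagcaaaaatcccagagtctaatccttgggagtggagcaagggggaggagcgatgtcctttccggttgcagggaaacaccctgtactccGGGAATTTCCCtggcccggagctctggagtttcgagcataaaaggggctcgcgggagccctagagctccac
Cxcl2, chr5:90903649-90903898, forward: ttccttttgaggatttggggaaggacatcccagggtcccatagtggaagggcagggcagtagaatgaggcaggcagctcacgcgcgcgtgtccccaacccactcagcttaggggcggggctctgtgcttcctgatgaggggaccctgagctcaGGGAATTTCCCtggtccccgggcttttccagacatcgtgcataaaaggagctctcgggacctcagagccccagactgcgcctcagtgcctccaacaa
Cxcl3, chr5:90785851-90786100, forward: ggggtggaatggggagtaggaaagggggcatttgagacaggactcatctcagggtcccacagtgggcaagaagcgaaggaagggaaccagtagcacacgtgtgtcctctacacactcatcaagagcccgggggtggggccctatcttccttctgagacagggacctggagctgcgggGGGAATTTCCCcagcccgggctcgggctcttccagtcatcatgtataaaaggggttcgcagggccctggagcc
Cxcl10, chr5:92348890-92349139, reverse: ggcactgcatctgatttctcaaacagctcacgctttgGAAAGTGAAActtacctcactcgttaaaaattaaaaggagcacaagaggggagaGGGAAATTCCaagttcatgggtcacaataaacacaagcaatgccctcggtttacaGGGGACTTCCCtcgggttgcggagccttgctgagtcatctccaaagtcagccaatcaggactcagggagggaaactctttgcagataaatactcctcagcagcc
The stretch GGGAATTTCCC, which matches on both strands at overlapping positions, stood at -71 to -61 from the RefSeq start in Cxcl1, at -97 to -87 in Cxcl2 and at -73 to -63 in Cxcl3. Cxcl10 held the NF-kB consensus at -159 to -150 and at -104 to -94, with the interferon core at -213 to -204. GENCODE M21 places the starts of Cxcl1 (90891241) and Cxcl2 (90903871) inside the stretches shown. These matches describe letters only, and the windows of Cxcl15, Cxcl9 and Cxcl12 held no match to either motif.

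The total count per library was 66540022 to 120554468 (median 93075927), at which 3 counts, taken as the floor, correspond to 0.0226 to 0.0510 CPM, the count scaled by the library's TMM-adjusted total. Floors and intervals cover counting error or the spread between mice only. Ephb4 itself was at 15.9 ± 15.2 and 9.67 ± 8.10 CPM (SD, n = 4 and 5) in control and CKO animals after PBS and at 38.4 ± 21.2 and 9.65 ± 3.71 CPM (SD, n = 4 each) after bleomycin, and the ranges overlapped in both pairs. The labelled cell type was checked with marker genes. A score, the mean log2 CPM over 12 fibroblast genes, was 6.98 to 7.77 in Ephb4 control mice given bleomycin, but -0.51 to 6.98 in Ephb4 control mice and 0.438 to 5.50 in Ephb4 CKO mice given PBS and -0.12 to 5.89 in Ephb4 CKO mice given bleomycin. The score of 14 macrophage genes was 4.00 to 9.01 and exceeded the fibroblast score in 14 of the 17 libraries. Col1a1, the main fibrillar collagen chain, was at 0.361 CPM in 1 library labelled as fibroblasts (Ephb4 control PBS mouse 4), where the summed macrophage markers were at 38000 CPM. The Xist and Y chromosome genes of 3 libraries, mouse 2 of the bleomycin controls and mice 1 and 2 of the bleomycin CKO group, went against the sex recorded for them, so results after bleomycin are also given without these libraries. In bulk RNA, fewer cells of a type and less RNA per cell cannot be told apart.

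All 10 chemokines were detected, at levels that spread widely between mice. Genes were kept for testing when they exceeded 10 CPM in at least 2 libraries, which retained 10481 genes and 9 of the 10 members. Cxcl9 was not kept, with a maximum of 5.99 CPM and 6 libraries at 3 counts or fewer. Per length, as CPM per kb of exon, the order of the medians over the 17 libraries was Cxcl16 (32.0), Cxcl3 (19.2), Cxcl14 (7.46), Cxcl5 (7.32), Cxcl1 (4.29), Cxcl2 (4.14), Cxcl10 (2.14), Cxcl12 (1.89), Cxcl15 (0.419) and Cxcl9 (0.044). The ranges of all neighbours in this order overlapped. Within libraries, Cxcl16 exceeded Cxcl3 in 12 of 17 and Cxcl15 exceeded Cxcl9 in 14 of 17, whereas Cxcl3 exceeded Cxcl14 in only 7 of 17 and Cxcl1 exceeded Cxcl2 in only 6 of 17, so the order of the medians was not the order within most libraries for these last pairs.

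The member that led the summed level also differed between mice. Cxcl16 had the largest share of the summed CPM per kb in 7 libraries, Cxcl14 in 4, Cxcl3 in 3, and Cxcl2, Cxcl5 and Cxcl10 in 1 each. The largest shares were 73.6% for Cxcl14 in Ephb4 control PBS mouse 3, 72.1% for Cxcl16 in Ephb4 CKO PBS mouse 2 and 63.7% for Cxcl5 in Ephb4 CKO bleomycin mouse 2. The summed level ran from 43.8 CPM per kb in Ephb4 control bleomycin mouse 3 to 1300.0 in Ephb4 CKO PBS mouse 1. No group had the same leading member in every mouse.

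**Figure D1:**
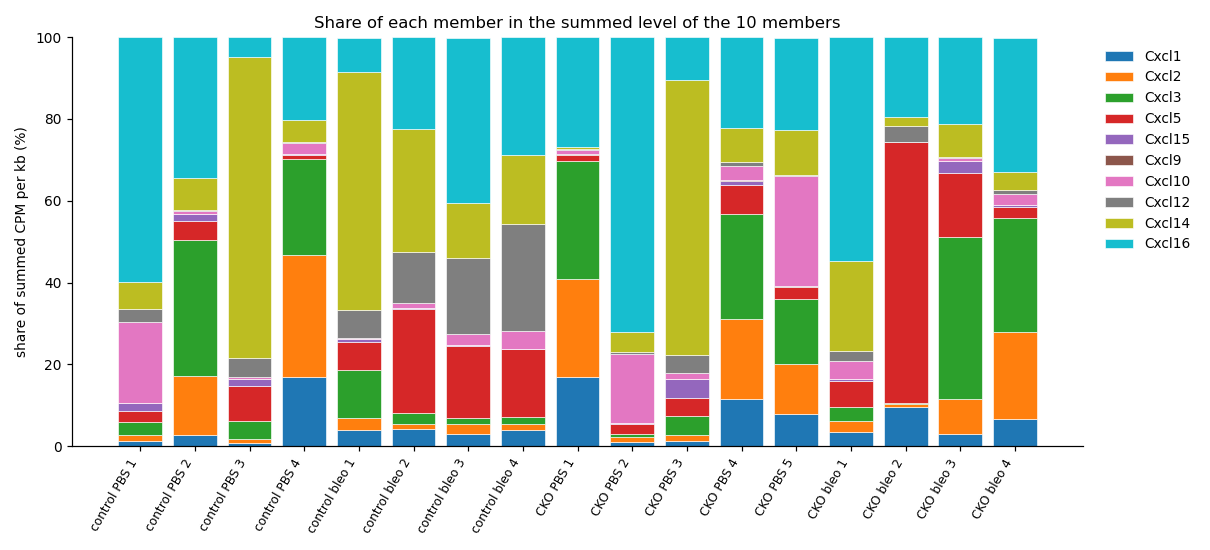
Share of each of the 10 members in their summed CPM per kb (%, vertical axis) for the 17 libraries (horizontal axis, group and mouse number), as stacked bars. Cxcl16 takes the largest share in 7 libraries and Cxcl14 in 4, and in Ephb4 CKO PBS mouse 1 the ELR members Cxcl1, Cxcl2 and Cxcl3 take 17.0%, 23.8% and 28.9%.

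The spread between mice of the same group was large for these genes. The within-group SD of log2 CPM was 2.89 for Cxcl3, 2.74 for Cxcl15, 2.56 for Cxcl2, 2.28 for Cxcl1, 2.19 for Cxcl14, 1.98 for Cxcl12, 1.80 for Cxcl5, 1.63 for Cxcl10 and 1.03 for Cxcl16, where the median over all genes kept was 0.425. Between 80.6% (Cxcl16) and 98.9% (Cxcl3) of the genes kept had a smaller SD. Ephb4 CKO PBS mouse 1 held the highest level of 5 of the 10 members, and Ephb4 CKO PBS mouse 2, of the same group, held the lowest level above 0 of 4 members.

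Cxcl1, Cxcl2 and Cxcl3, the closely related ELR ligands of Cxcr2, had their highest levels in a single mouse. In CPM, Cxcl3 was at 6.67, 118, 67.1 and 114 in Ephb4 control mice given PBS and at 147, 10.1, 2.19 and 2.95 in those given bleomycin. In Ephb4 CKO mice it was at 1317, 1.95, 26.5, 78.3 and 155 after PBS and at 10.3, 2.33, 210 and 95.2 after bleomycin. The 4 groups overlapped, and a 674-fold range lay within the Ephb4 CKO mice given PBS alone. Cxcl2 was at 1.72, 30.0, 8.56 and 85.1 CPM in Ephb4 control mice given PBS and at 20.9, 2.24, 2.28 and 1.21 CPM in those given bleomycin, of which 3 lay close together and below 3 of the 4 PBS mice. In Ephb4 CKO mice Cxcl2 was at 641, 1.46, 4.66, 35.6 and 69.2 CPM after PBS and at 4.64, 2.76, 27.0 and 43.1 CPM after bleomycin, again with overlap. Cxcl1 was at 1.29, 5.27, 6.13 and 44.1 CPM in Ephb4 control mice given PBS and at 26.1, 8.05, 2.41 and 3.32 CPM in those given bleomycin. In Ephb4 CKO mice Cxcl1 was at 417, 1.04, 3.62, 18.7 and 40.1 CPM after PBS and at 5.83, 33.1, 8.49 and 12.2 CPM after bleomycin. Ephb4 CKO PBS mouse 1 was thus the highest of all 17 libraries for all 3 genes, while Ephb4 CKO PBS mouse 2 was the lowest of its group for all 3.

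The same library had high levels of other inflammatory genes. Il1b, which encodes the cytokine IL-1β, was at 3687 CPM in Ephb4 CKO PBS mouse 1 and at 1.66 to 184.5 CPM in the other 16 libraries. Tnf (312 CPM) and Nfkbia (210 CPM), an inhibitor and target of NF-kB, also had their highest level there. The score of 7 neutrophil markers was 0.857 in this library (-3.40 to 1.28 over all libraries), and their summed level of 115 CPM was the highest of the 17 (next 78.8). Of these markers, S100a8 was at 79.6 CPM there (next 30.7) and Csf3r at 8.34 CPM, below the 27.6 CPM of Ephb4 CKO PBS mouse 5. Ly6g, a defining neutrophil gene, was at 0.0733 CPM, only 6 counts but the highest of the 17. The part of these genes and of this cell content in the high chemokine levels was not tested.

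**Figure D2:**
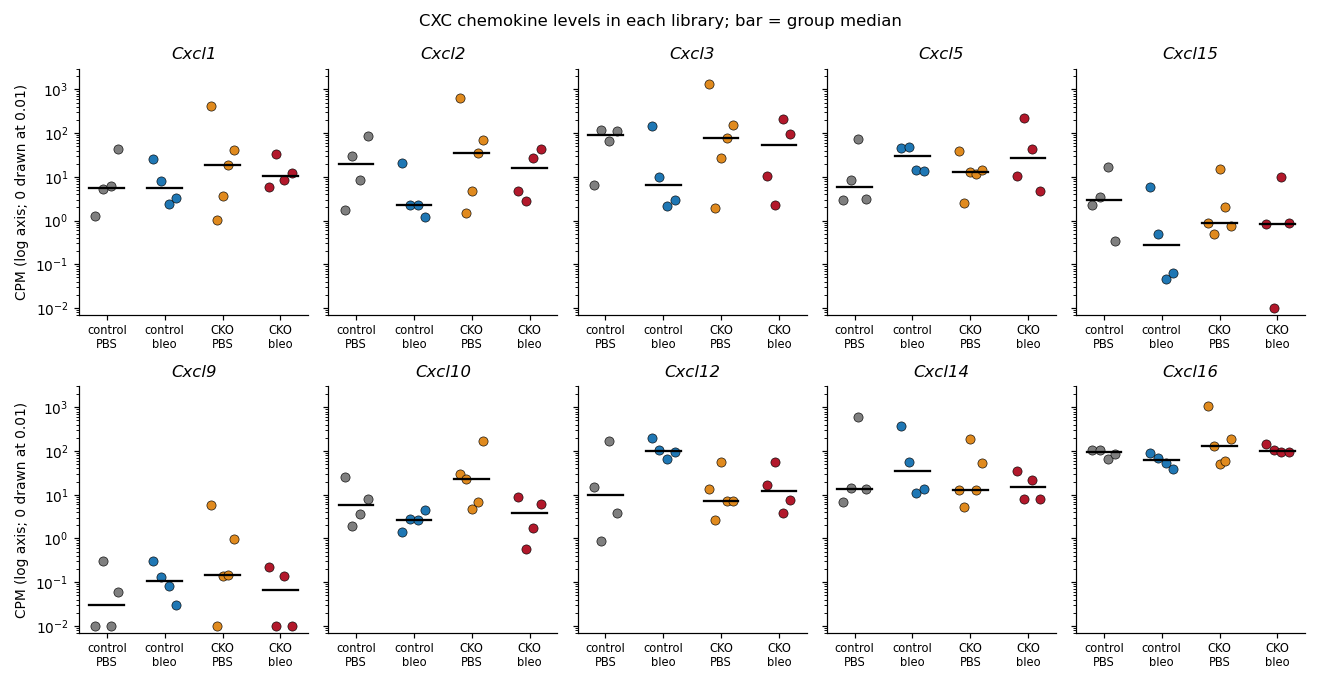
Level of each member in each library (points, CPM on a log axis, with 0 drawn at 0.01) in the 4 groups, with the group median as a bar. Groups overlap in nearly every panel, with Cxcl12 and Cxcl16 after bleomycin as the exceptions between genotypes, and the highest Cxcl1, Cxcl2, Cxcl3 and Cxcl16 points belong to 1 Ephb4 CKO mouse given PBS.

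Cxcl5 and Cxcl15, the other ELR ligands, did not share this pattern. Cxcl5, which in the lung is known as a product of epithelial cells, was at 2.95, 8.51, 71.6 and 3.06 CPM in Ephb4 control mice given PBS and at 45.2, 48.2, 14.4 and 13.6 CPM in those given bleomycin. In the CKO mice Cxcl5 was at 38.2, 2.56, 12.8, 11.6 and 14.1 CPM after PBS and at 10.5, 219, 43.7 and 4.80 CPM after bleomycin. All 4 bleomycin values of the Ephb4 control mice exceeded 3 of their 4 PBS values, with PBS mouse 3 above them all, and the highest value was in Ephb4 CKO bleomycin mouse 2, a library that went against its recorded sex. Cxcl15, also called lungkine and known as an epithelial product, was low, at 0 to 16.6 CPM (median 0.892), and exceeded 10 CPM in 2 libraries, Ephb4 control PBS mouse 3 (16.6) and Ephb4 CKO PBS mouse 3 (15.3). Ephb4 CKO bleomycin mouse 2 had a Cxcl15 count of 0. The score of 9 epithelial genes was 5.67 and 5.81 in the former libraries and -0.074 in the latter. This lowest epithelial score of all libraries thus lay in the library with the highest Cxcl5. Ephb4 control PBS mouse 1, however, had a score of 5.92 with Cxcl15 at 2.33 CPM, and Ephb4 CKO PBS mouse 2 a score of 5.45 with Cxcl15 at 0.493 CPM.

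The interferon-inducible ligands were low. Cxcl10 was at 25.8, 1.95, 3.69 and 8.09 CPM in Ephb4 control mice given PBS and at 1.40, 2.74, 2.60 and 4.41 CPM in those given bleomycin. In Ephb4 CKO mice it was at 29.7, 22.6, 4.82, 6.90 and 167 CPM after PBS and at 8.85, 0.572, 1.72 and 6.03 CPM after bleomycin. The highest value, in Ephb4 CKO PBS mouse 5, was accompanied by the highest Cxcl11 (6.73 CPM), a further Cxcr3 ligand, and the highest Ifit3, an interferon target, of the 17 libraries. Cxcl9 reached 5.99 CPM in Ephb4 CKO PBS mouse 1 and 0.979 CPM in Ephb4 CKO PBS mouse 5, and was between 0 and 0.304 CPM in the other 15 libraries. Gbp2, an interferon target, was highest in Ephb4 CKO PBS mouse 1 (1592 CPM, next 373.8). Cxcr3 was at 1.62 CPM or less in every library.

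Cxcl12, the stromal ligand of Cxcr4, was highest in Ephb4 control mice given bleomycin. It was at 198, 105, 67.4 and 94.7 CPM in these mice and at 17.1, 55.9, 3.85 and 7.59 CPM in Ephb4 CKO mice given bleomycin, so that the lowest control value lay above the highest CKO value. Among mice given PBS the controls were at 15.4, 0.890, 169 and 3.87 CPM and the CKO mice at 13.7, 2.60, 57.3, 7.33 and 7.25 CPM. Ephb4 control PBS mouse 3, at 169 CPM, stood among the bleomycin mice of its genotype. Cxcl14 was at 6.81, 14.3, 593 and 13.4 CPM in Ephb4 control mice given PBS and at 378, 55.8, 10.7 and 13.6 CPM in those given bleomycin. In Ephb4 CKO mice Cxcl14 was at 12.7, 5.33, 193, 13.1 and 54.1 CPM after PBS and at 35.3, 7.99, 22.2 and 7.94 CPM after bleomycin. Cxcl14 was thus high in 3 libraries of 3 groups and at most 55.8 CPM in the other 14.

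Cxcl16, the membrane-bound ligand of Cxcr6, had the smallest spread of the 9 members kept. It was at 105, 105, 64.6 and 84.9 CPM in Ephb4 control mice given PBS and at 89.9, 68.9, 53.5 and 38.8 CPM in those given bleomycin. In Ephb4 CKO mice it was at 1059, 130, 50.3, 58.8 and 189 CPM after PBS and at 145, 108, 97.4 and 96.7 CPM after bleomycin. Every Ephb4 CKO mouse given bleomycin was above every Ephb4 control mouse given bleomycin. Cxcr6 was highest in Ephb4 CKO PBS mouse 1 (21.5 CPM, next 6.82), as was Cxcl16.

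After bleomycin, Ephb4 CKO mice had less Cxcl12 and more Cxcl16 than Ephb4 control mice, without overlap of the groups, but neither difference passed the test. The mean of Cxcl12 was 116 ± 56.6 CPM with intact Ephb4 and 21.1 ± 23.9 CPM with CKO (SD, n = 4 each), a log2 fold change of -2.46 (standard error 1.33, 95% interval -5.29 to 0.36), and did not pass edgeR's quasi-likelihood test (adjusted p = 0.283). The mean of Cxcl16 was 62.8 ± 21.9 and 112 ± 22.8 CPM (SD, n = 4 each), a log2 fold change of 0.83 (standard error 0.73, 95% interval -0.73 to 2.38; edgeR adjusted p = 0.499). Groups that do not overlap were found for 2 of the 9 members kept and for 23.2% of all genes kept, so that the share of members is close to the background. At an adjusted p under 0.05, edgeR called 0 of 9 members and 0% of all genes in this comparison, and 0 of 9 members had an unadjusted p under 0.05, where 20.2% of all genes did. For Cxcl14 the log2 fold change was -2.65 (standard error 1.56; edgeR adjusted p = 0.322), which was -0.60 without Ephb4 control bleomycin mouse 1, and the 5 ELR members had values of 0.57 to 1.53. With 1 library left out, 4 of these 5 became negative, Cxcl1 (-0.18) and Cxcl5 (-0.63) without Ephb4 CKO bleomycin mouse 2 and Cxcl3 (-0.18) and Cxcl15 (-1.49) without Ephb4 CKO bleomycin mouse 3. The median over the 9 members was 0.83 and that over all genes 0.0093. In the fit of these 2 groups alone, which kept 7 members among 9879 genes, 2 of the 7 (Cxcl12 and Cxcl16) and 28.5% of all genes had an unadjusted p under 0.05, and 0 members passed after adjustment.

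Marker genes moved with these differences. For the fibroblast list, 11 of 11 genes kept had a lower mean in Ephb4 CKO mice given bleomycin and 8 did not overlap, and the summed level of the list was 5770 to 12600 CPM in the controls and 74.9 to 1850 CPM in the CKO mice, with at most 1 of its genes at the floor in any of these libraries. For the macrophage list, 14 of 14 genes had a higher mean in Ephb4 CKO mice and 5 did not overlap, with a summed level of 1210 to 17500 against 18600 to 41500 CPM. For the smooth muscle list, 3 of 3 genes kept had a lower mean in Ephb4 CKO mice and 2 did not overlap, and its summed level was 249 to 327 CPM in the controls and 2.59 to 211 CPM in the CKO mice. The part of cell content in the Cxcl12 and Cxcl16 values was not tested. Without the 3 libraries that went against their recorded sex, Cxcl12 had a log2 fold change of -4.44 (edgeR adjusted p = 0.308), Cxcl16 of 0.63 (edgeR adjusted p = 0.765) and Cxcl5 of -0.062 in place of 1.19, and 3 of 9 members, Cxcl2 in addition, had groups without overlap, beside 48.1% of all genes. This leaves 3 controls, all of number series 12 in the mouse labels, and 2 CKO mice, both of series 11, so genotype and series cannot be told apart in it.

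Bleomycin against PBS in Ephb4 control mice showed lower means of 7 and higher means of 2 of the 9 members, and none passed the test. Marker genes moved with this comparison: 14 of 14 macrophage genes had a lower mean after bleomycin (1 without overlap), 11 of 11 fibroblast genes a higher one (5 without overlap) and 3 of 3 smooth muscle genes a higher one (3 without overlap), and the part of this in the chemokine values was not tested. Cxcl2 was at 31.3 ± 37.8 CPM after PBS and 6.67 ± 9.53 CPM after bleomycin (SD, n = 4 each), with a log2 fold change of -2.22 (standard error 1.61; edgeR adjusted p = 0.513), a value that moved to -1.0 when PBS mouse 4 was left out and to -3.98 when bleomycin mouse 1 was. Cxcl10 was at 9.88 ± 10.9 and 2.79 ± 1.24 CPM (SD, n = 4 each), with a log2 fold change of -1.82 (standard error 1.09; edgeR adjusted p = 0.435), which was -0.71 without Ephb4 control PBS mouse 1. Cxcl12 was at 47.2 ± 81.3 CPM after PBS and 116 ± 56.6 CPM after bleomycin, with a log2 fold change of 1.29 (standard error 1.28; edgeR adjusted p = 0.628). Without Ephb4 control PBS mouse 3, the mouse with the highest Cxcl12 and Cxcl14 of its group, the Cxcl12 value was 4.16 (edgeR adjusted p = 0.0918) and the Cxcl14 value was 3.37 in place of -0.46. The fibroblast score of this mouse was 6.98, beside -0.51, 0.583 and 2.87 in the other mice of its group. edgeR called 0 of 9 members and 0% of all genes. At an unadjusted p under 0.05 it was 0 of 9 members and 14.3% of all genes, and groups without overlap were 0 of 9 members and 8.84% of all genes. The median log2 fold change was -0.51 for the members and -0.062 for all genes.

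Ephb4 CKO against control mice given PBS had positive values for the ELR ligands Cxcl1 (log2 fold change 2.76, standard error 1.48), Cxcl2 (2.26, standard error 1.57) and Cxcl3 (2.05, standard error 1.68), for Cxcl10 (2.22, standard error 1.07) and for Cxcl16 (1.72, standard error 0.72), and none passed edgeR's quasi-likelihood test (adjusted p = 1.00 each). The mean of Cxcl16 was 89.9 ± 19.4 CPM (SD, n = 4) in the control group and 297 ± 430 CPM (SD, n = 5) in the CKO group. These values rested on single mice. Without Ephb4 CKO PBS mouse 1 the log2 fold change was 0.18 for Cxcl1, -0.15 for Cxcl2, -0.21 for Cxcl3 and 0.26 for Cxcl16, and without Ephb4 CKO PBS mouse 5 that of Cxcl10 was 0.70. Cxcl5, Cxcl15, Cxcl12 and Cxcl14 had values of -1.50 to -0.45, of which those of Cxcl5 (1.72), Cxcl12 (1.40) and Cxcl14 (2.28) were positive without Ephb4 control PBS mouse 3. edgeR called 0 of 9 members and 0% of all genes. An unadjusted p under 0.05 was found for 1 of 9 members, Cxcl16, and 1.99% of all genes, and groups without overlap for 0 of 9 members and 0.239% of all genes. The median log2 fold change was 1.72 for the members and -0.020 for all genes. This member median was the value of Cxcl16, which was 0.26 without Ephb4 CKO PBS mouse 1, so it rested on single mice too.

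Bleomycin against PBS in Ephb4 CKO mice had its smallest unadjusted p among the members, 0.00880 in edgeR across all genes, for Cxcl10. The level was 46.2 ± 68.3 CPM after PBS (SD, n = 5) and 4.29 ± 3.84 CPM after bleomycin (SD, n = 4). Its log2 fold change was -3.43 (standard error 1.14, 95% interval -5.85 to -1.0), with an adjusted p of 1.00 in edgeR, and was -1.90 without Ephb4 CKO PBS mouse 5. Values for Cxcl1 (-2.69), Cxcl2 (-2.96), Cxcl3 (-1.99) and Cxcl16 (-1.41) were -0.10, -0.54, 0.26 and 0.057 without Ephb4 CKO PBS mouse 1. Cxcl5 had a value of 2.13 (standard error 1.13; edgeR adjusted p = 1.00), which was 0.31 without Ephb4 CKO bleomycin mouse 2. edgeR called 0 of 9 members and 0% of all genes, an unadjusted p under 0.05 was found for 1 of 9 members and 0.964% of all genes, and groups without overlap for 0 of 9 members and 0.0763% of all genes. The median log2 fold change was -1.60 for the members and -0.029 for all genes. This member median includes the values of Cxcl1, Cxcl2, Cxcl3 and Cxcl16 that moved without Ephb4 CKO PBS mouse 1. This comparison shares its PBS mice with that of the genotypes after PBS, and its bleomycin mice with that of the genotypes after bleomycin, so these sets of values are not independent.

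Whether the bleomycin difference itself differed between genotypes was tested as an interaction. The interaction values ran from -2.19 for Cxcl1 (95% interval -6.44 to 2.07) to 1.64 for Cxcl5 (95% interval -1.80 to 5.08), the smallest unadjusted p was 0.291 and the smallest adjusted p was 0.916 by edgeR's quasi-likelihood test. edgeR called 0 of 9 members and 0% of all genes, and 0 of 9 members and 3.46% of all genes had an unadjusted p under 0.05. DESeq2 on the same genes called 0 of 9 members in each of the 5 comparisons and 166, 1, 399, 1 and 0 of all genes for bleomycin in Ephb4 control mice, genotype after PBS, genotype after bleomycin, bleomycin in Ephb4 CKO mice and the interaction. Before adjustment DESeq2 gave a p under 0.05 to 3 members (Cxcl1, Cxcl10 and Cxcl16) and 3.33% of all genes between genotypes after PBS, to 1 (Cxcl12) and 26.0% between genotypes after bleomycin, and to 5 (Cxcl1, Cxcl2, Cxcl5, Cxcl10 and Cxcl16) and 1.77% for bleomycin in Ephb4 CKO mice, where single mice hold the highest levels as given above. It did so for 0 members and 17.9% of all genes for bleomycin in Ephb4 control mice, and for 0 members and 5.20% for the interaction. The standard errors of the members were 0.71 to 2.44 on the log2 scale, so most intervals reached differences of several fold in at least 1 direction.

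**Figure D3:**
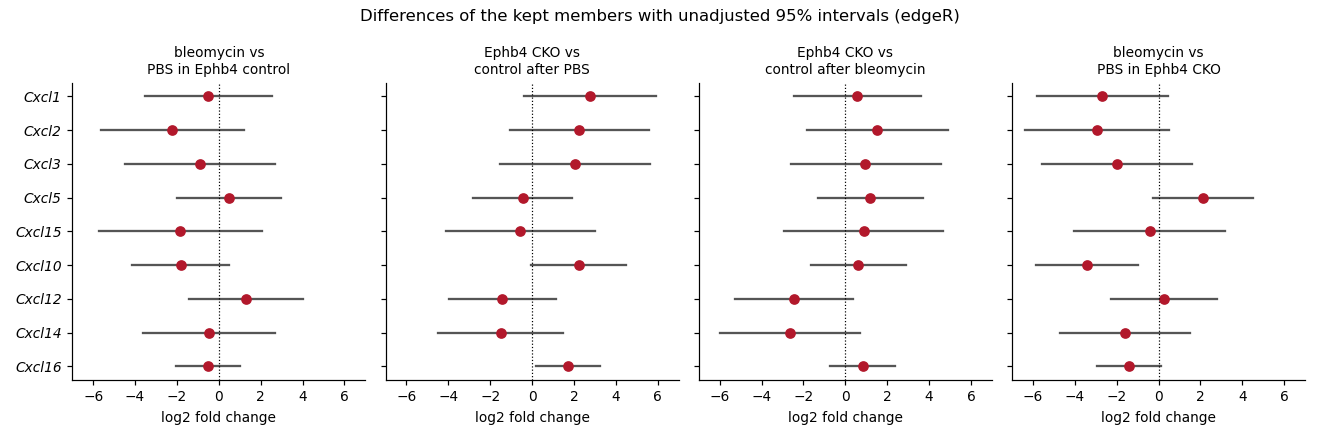
Log2 fold changes (points, horizontal axis) of the 9 members kept in the 4 comparisons, with unadjusted 95% intervals as lines, from edgeR. Intervals exclude 0 for Cxcl16 between genotypes after PBS (0.19 to 3.26) and for Cxcl10 between bleomycin and PBS in Ephb4 CKO mice (-5.85 to -1.0), and neither passes the test after adjustment over all genes.

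Some members varied together over the 17 libraries. The correlations of log2 CPM that follow are descriptions over libraries of all 4 groups, which share differences in cell content and depth, and carry no test. Cxcl2 and Cxcl3 had a Pearson r of 0.93 (Spearman rho 0.86, and r of 0.92 without the 2 libraries farthest from the median of Cxcl2). Cxcl1 had an r of 0.82 with Cxcl2 (rho 0.79) and of 0.70 with Cxcl3 (rho 0.69). Without the 2 libraries farthest from the median of Cxcl1, the r values of these pairs were 0.68 and 0.49. Cxcl1, Cxcl2 and Cxcl3 are the genes of the chromosome 5 cluster whose windows held the stretch GGGAATTTCCC, and the window of Cxcl5 was not at hand. Cxcl10, whose window also held the NF-kB consensus, had an r of 0.12, 0.29 and 0.21 with Cxcl1, Cxcl2 and Cxcl3. Cxcl2 and Cxcl3 also share 101 stretches of 75 bases. Cxcl9, whose window held no match and whose counts are sparse, had an r of 0.64 to 0.67 with Cxcl1, Cxcl2 and Cxcl3. The r of Cxcl9 with Cxcl1 was 0.28 without the 2 libraries farthest from the median of Cxcl1. That with Cxcl2 was 0.52 without the 2 farthest from the median of Cxcl2. Without the 2 libraries farthest from the median of Cxcl3, its r was 0.65 with Cxcl9 and 0.56 with Cxcl16. These leave out libraries chosen by Cxcl3 and not by Cxcl1, so they cannot be ranked against the 0.49 above. Cxcl5, which lies in the same cluster, had an r of 0.10 with Cxcl3 and of 0.57 with Cxcl12. Cxcl15 had its highest r among members with Cxcl14 (0.60), and the lowest r of any pair was that of Cxcl5 and Cxcl10 (-0.53).

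**Figure D4:**
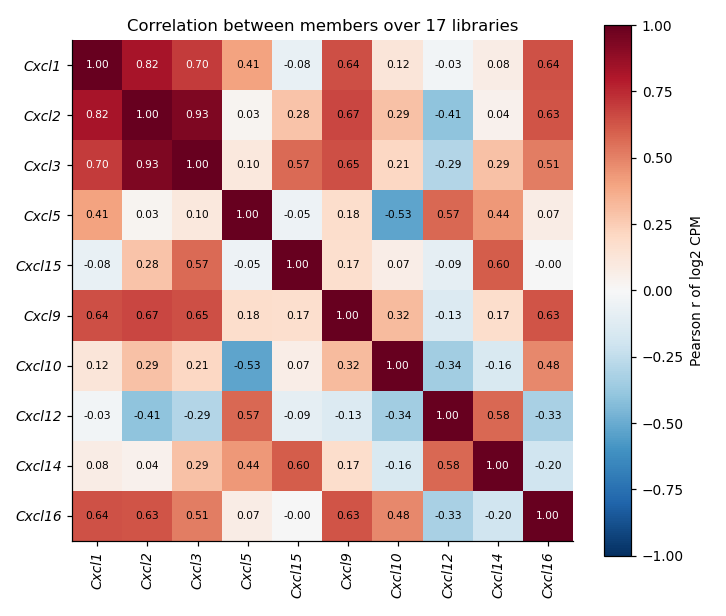
Pearson r of log2 CPM between each pair of the 10 members over the 17 libraries (colour and printed value). The block of Cxcl1, Cxcl2 and Cxcl3 holds the 3 highest values (0.70 to 0.93), while Cxcl12 is highest with Cxcl14 (0.58) and Cxcl5 (0.57).

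Among all genes kept, the genes most like each member in log2 CPM over the 17 libraries were listed, 3 for each, as a description. For Cxcl2 they were Sod2, the mitochondrial superoxide dismutase (r = 0.96), Zc3h12a, an RNase that degrades inflammatory mRNAs (r = 0.94), and Cxcl3. For Cxcl3 they were Diablo (r = 0.94), Cxcl2 and Nfkbia (r = 0.93). For Cxcl12 they were the homeobox genes Hoxa4 (r = 0.98) and Hoxa5 (r = 0.96) and Tmem45a (r = 0.96). For Cxcl15 they were Cpm (r = 0.95), Sftpd, which encodes surfactant protein D (r = 0.95), and Egfl6 (r = 0.95). For Cxcl14 they were A4galt (r = 0.90), Sparcl1 and Smg6 (both r = 0.88), and for Cxcl5 they were Gstt1 (r = 0.84), C1s1 (r = 0.82) and Gstm2 (r = 0.81). For Cxcl1 they were Ociad1, Sugt1 (both r = 0.89) and Ciao1 (r = 0.88), for Cxcl10 Tirap (r = 0.85), Slc7a7 and Triobp (both r = 0.82), and for Cxcl16 Tmem159 (r = 0.92), Cwc25 and Procr (both r = 0.88). For Cxcl16 and Procr the r was 0.55 without the 2 farthest libraries.

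The members also differed in how they varied with marker scores. Cxcl12 had an r of 0.91 with the fibroblast score and of -0.68 with the macrophage score, and the 8 libraries with the highest fibroblast scores were the 8 with the highest Cxcl12, whatever their group. Cxcl5 had an r of 0.64 and Cxcl14 of 0.55 with the fibroblast score, and of -0.36 and 0.38 with the epithelial score. Cxcl15 had an r of 0.79 with the epithelial score and of 0.65 with the neutrophil score, and Cxcl3 of 0.72 with the neutrophil score. Of the 7 neutrophil genes, 3 passed the filter and up to 4 were at the floor in a library, so this score is shaped by low counts. For Cxcl16 the 4 values ran from -0.39 (fibroblast) to 0.37 (neutrophil), with 0.14 for the macrophage score. Correlations of this kind describe the libraries and do not say which cells made the RNA.

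**Figure D5:**
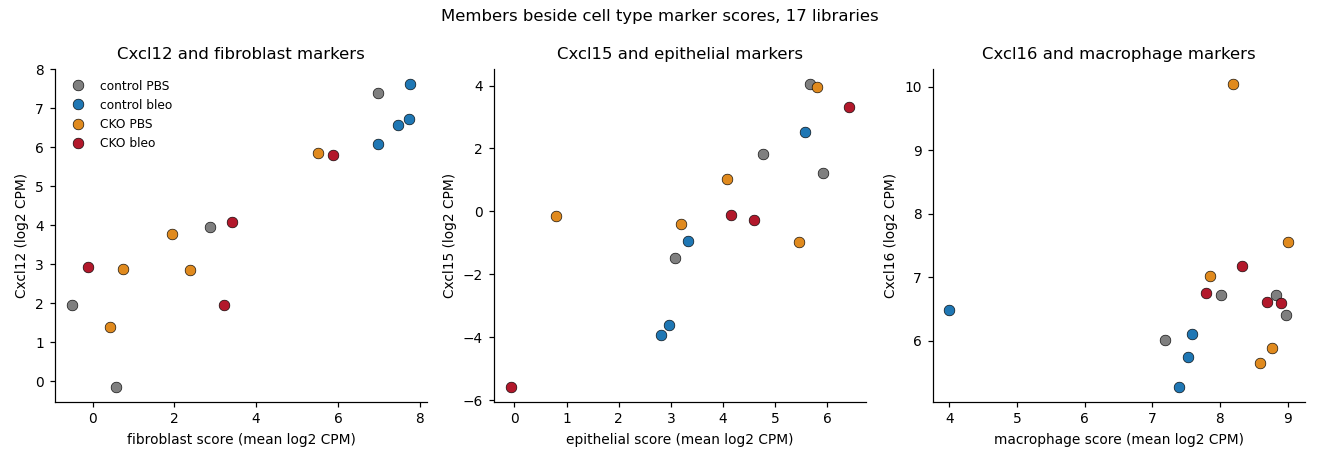
Level of 3 members (log2 CPM, vertical axes) against the mean log2 CPM of fibroblast, epithelial or macrophage marker genes (horizontal axes), 1 point per library coloured by group. Cxcl12 follows the fibroblast score (r = 0.91) and Cxcl15 the epithelial score (r = 0.79) over the 17 libraries, whereas Cxcl16 has an r of 0.14 with the macrophage score.

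Of the 8 CXC receptor genes listed, 3 passed the filter, Cxcr1, Cxcr2 and Cxcr4. Cxcr4, the receptor of Cxcl12, was at 56.9 ± 14.3 and 41.9 ± 35.4 CPM in Ephb4 control mice given PBS and bleomycin (SD, n = 4 each) and in CKO mice at 70.7 ± 24.5 (SD, n = 5) and 79.1 ± 33.6 CPM (SD, n = 4). Its log2 fold change between genotypes after bleomycin was 0.92 (standard error 0.56; edgeR adjusted p = 0.337), opposite in sign to that of Cxcl12. Cxcr2, the receptor of Cxcl1, Cxcl2, Cxcl3 and Cxcl5, had group means of 2.75 to 9.88 CPM, and Cxcr1 of 38.1 to 108 CPM. None of the 3 receptors had an unadjusted p under 0.05 in any of the 5 comparisons. The decoy and scavenging receptors Ackr1 and Ackr3 were not kept, and the group means of Ackr3 were 2.44 to 5.66 CPM. Of 5 further ligands, Pf4 (group means 44.3 to 121 CPM) and Ppbp (1.80 to 15.1 CPM), the neighbours of Cxcl5 and Cxcl3, were kept. The Ppbp log2 fold change between genotypes after bleomycin was 3.06 (standard error 1.51; edgeR adjusted p = 0.256), with its highest level, 55.0 CPM, in Ephb4 CKO bleomycin mouse 3, without which the value was -0.037.

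Of the 3 proteases that act on CXC ligands, Adam10 and Adam17 were kept. Adam17, which sheds membrane proteins, was after bleomycin at 98.7 ± 31.3 CPM in controls and 226 ± 94.1 CPM in CKO mice (SD, n = 4 each), with a log2 fold change of 1.19 (standard error 0.43; edgeR adjusted p = 0.215). Its groups did not overlap, which held for 23.2% of all genes kept in this comparison. The NF-kB list, of which 14 of 14 genes were kept, had 4 genes with an unadjusted p under 0.05 for bleomycin against PBS in Ephb4 control mice, Tnf (-3.40), Il1a (-2.17), Nfkbie (-1.74) and Tnfaip3 (-1.63), all of negative sign, and 2 between genotypes after bleomycin, Tnf (2.80) and Nfkbie (1.60). Without Ephb4 control PBS mouse 4 the value of Tnf was -1.71 and that of Nfkbie -0.84 in the former, and without Ephb4 CKO bleomycin mouse 4 they were 1.69 and 0.86 in the latter. Its median log2 fold change was -0.62 in the former comparison, 0.39 between genotypes after PBS, 0.51 between genotypes after bleomycin and -0.76 for bleomycin against PBS in Ephb4 CKO mice. Il1b, at -4.55, and Tnfaip3, at -1.25, had an unadjusted p under 0.05 in the last of these, and without Ephb4 CKO PBS mouse 1 the values were 0.14 and -0.74. At an unadjusted p under 0.05 the list thus had 4, 2 and 2 of 14 genes in the comparisons named. In the same order, edgeR gave a p under 0.05 to 14.3%, 20.2% and 0.964% of all genes before adjustment. In all 5 comparisons edgeR called 0 of the 14 genes after adjustment over all genes.

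The interferon list, with 10 of 11 genes kept, had positive values for 10 of 10 genes between genotypes both after PBS (median 1.77) and after bleomycin (median 1.37), and negative values for 10 of 10 genes for bleomycin against PBS in Ephb4 control (median -1.08) and in Ephb4 CKO mice (median -1.38). These uniform signs rested in part on single mice: without Ephb4 CKO PBS mouse 5 Irf7 was at -0.16 between genotypes after PBS, and without Ephb4 control PBS mouse 4 Gbp2 was at 0.079 and Ifit1 at 0.69 for bleomycin in Ephb4 control mice. After PBS, Gbp2 (3.06) and Ifit1 (2.83) were among those with an unadjusted p under 0.05, with Gbp2 at 1.35 when PBS mouse 1 of the CKO group was left out and Ifit1 at 1.38 when its mouse 5 was, and after bleomycin Irf7 (3.24) and Irf9 (0.98) did. For bleomycin against PBS this held for Gbp2 (-2.96, and -1.25 without Ephb4 CKO PBS mouse 1) in Ephb4 CKO mice and for no gene of the list in Ephb4 control mice. Cxcl10, an interferon target outside the list, had the same signs, 2.22, 0.62, -1.82 and -3.43, in these 4 comparisons, which share mice. edgeR called 0 of the 10 genes in every comparison. At an unadjusted p under 0.05 the list had 3 of 10 genes between genotypes after PBS, beside 1.99% of all genes. Between genotypes after bleomycin it had 2 of 10, beside 20.2%, which is the background share. For bleomycin against PBS it had 1 of 10 in Ephb4 CKO mice, beside 0.964%, and 0 of 10 in Ephb4 control mice, beside 14.3%.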

How the data were processed

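Total RNA of 17 cultures, 1 mouse each, was sequenced by the authors as stranded 75-base paired-end reads. Per the labels and the study's methods, reads were trimmed with cutadapt (1.18 in the submitters' processing notes, where the study's methods name another version) and aligned to GRCm38 with HISAT2 2.1.0, and StringTie produced the deposited count table, whose counts derive from coverage and are not normalized. The sequencing batch that the study's model includes is not given per library in the sources used here. Genes above 10 CPM in at least 2 libraries (10481 of 55421) were tested with edgeR 4.0.16 in R 4.3.3 (TMM, quasi-likelihood, 1 mean per group, Benjamini-Hochberg adjustment over all genes kept, threshold 0.05). Log2 CPM used a prior count of 2. Levels per kb used merged exon lengths of GENCODE M21.

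Alternatives were DESeq2 1.42.0, RLE normalization, 2 looser filters, fits of the 2 groups alone, the number series of the animals, the fit without 3 libraries against their recorded sex and each library left out. Chosen after seeing the data were a covariate for the 2 runs into which the columns of the count table are sorted, and the counts of groups without overlap under RLE, without these 3 libraries and without Ephb4 CKO PBS mouse 1, and the pathway genes with each library left out. The rule for named genes was all 10 members, fixed lists of receptors, further ligands, proteases, NF-kB and interferon genes, and the 3 genes most like each member. Values of 1 listed gene are not reported here. Members and lists were chosen with earlier results of these data known. The scripts were tested on simulated data.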

Additional observations from a re-analysis of the deposited data

Results flagged for a closer look

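For each of the 40 sets of a member and a group, the gap of the highest or lowest library to its neighbour was compared with the range of the group. The rule was Dixon's criterion at the 95% level, which normally distributed values meet by chance in about 1 of 20 groups. CPM values spread over many fold within groups and were not shown to be normally distributed, so sets flagged on CPM cannot be read against that rate. On CPM, 18 sets had a library apart, the highest in each case, and on log2 CPM 1 set did, Cxcl14 in Ephb4 control PBS mouse 3. In what follows the value of that library is given with the next highest of its group.

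Ephb4 CKO PBS mouse 1 stood apart for 5 members, at 416.7 CPM for Cxcl1 (next 40.1), 641.4 for Cxcl2 (next 69.18), 1317 for Cxcl3 (next 154.9), 5.986 for Cxcl9 (next 0.9795) and 1059 for Cxcl16 (next 188.5). Ephb4 control bleomycin mouse 1 stood apart for 4, at 20.94 CPM for Cxcl2 (next 2.28), 146.9 for Cxcl3 (next 10.1), 5.749 for Cxcl15 (next 0.4959) and 377.7 for Cxcl14 (next 55.79). It also had the lowest macrophage score of all libraries, 4.00, and an epithelial score of 5.58, the highest of its group. The part of these scores in its chemokine levels was not tested.

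Ephb4 control PBS mouse 3 stood apart at 71.56 CPM for Cxcl5 (next 8.507), 168.8 for Cxcl12 (next 15.43) and 592.7 for Cxcl14 (next 14.33). Ephb4 CKO PBS mouse 3 did so at 15.32 CPM for Cxcl15 (next 2.024), 57.26 for Cxcl12 (next 13.72) and 193.3 for Cxcl14 (next 54.13). Both had the highest fibroblast score of their group, 6.98 and 5.50, and the part of this in their levels was not tested. Single sets were Cxcl1 in Ephb4 control PBS mouse 4 at 44.07 CPM (next 6.131), Cxcl10 in Ephb4 CKO PBS mouse 5 at 166.9 CPM (next 29.72) and Cxcl15 in Ephb4 CKO bleomycin mouse 3 at 9.967 CPM (next 0.8945). For the interaction of genotype and bleomycin, 0 members had an unadjusted p under 0.05 in edgeR.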

How the results depend on the processing

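After adjustment, edgeR called 0 of the members tested under each of its 7 alternatives and with each of the 17 libraries left out, and DESeq2 called 0 with and without the sorted runs of columns. Fits of the 2 groups alone tested 7 to 9 members and give no interaction, and DESeq2 was not run with libraries left out. DESeq2 with the sorted runs of columns called 231, 0, 387, 1 and 1 of all genes in the 5 comparisons, edgeR 0. Cxcl9, tested only under the looser filters, had a log2 fold change of 4.05 between genotypes after PBS and -4.05 for bleomycin in Ephb4 CKO mice (21009 genes, edgeR adjusted p = 1.00 for both). In Ephb4 control mice all 4 bleomycin libraries are of 1 number series, so series and bleomycin can hardly be told apart there. At the depth of these libraries 3 counts limit Cxcl9 in 6 libraries, and the other limit is the spread between 4 or 5 mice a group. No paired analysis was possible because the replicate numbers were given in accession order and link no mice across groups.

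Of 45 values, 23 changed sign when 1 library was left out and 12 under another alternative, and the cause was not tested. With 1 library left out, log2 fold changes for bleomycin in Ephb4 control mice ranged from -1.56 to 1.24 (Cxcl1) and -2.53 to 3.37 (Cxcl14). For genotype after PBS they ranged from -0.15 to 3.48 (Cxcl2), -0.21 to 2.37 (Cxcl3), -1.10 to 1.72 (Cxcl5), -2.64 to 1.40 (Cxcl12) and -2.90 to 2.28 (Cxcl14). For genotype after bleomycin they ranged from -0.18 to 1.68 (Cxcl1), -0.18 to 3.89 (Cxcl3), -0.63 to 1.58 (Cxcl5), -1.49 to 3.76 (Cxcl15) and -0.011 to 0.99 (Cxcl10). For bleomycin in Ephb4 CKO mice they ranged from -3.14 to 0.26 (Cxcl3), -0.89 to 1.44 (Cxcl12) and -1.70 to 0.057 (Cxcl16). For the interaction they ranged from -3.92 to 0.36 (Cxcl1), -1.95 to 1.64 (Cxcl2), -2.23 to 1.83 (Cxcl3), -0.53 to 2.28 (Cxcl5), -0.93 to 4.35 (Cxcl15), -3.86 to 0.15 (Cxcl12), -4.97 to 0.92 (Cxcl14) and -1.21 to 0.55 (Cxcl16).

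With the number series as a covariate, values of opposite sign were 0.015 (Cxcl3), -0.21 (Cxcl5), 0.31 (Cxcl15) and 1.80 (Cxcl14) for bleomycin in Ephb4 control mice, -1.46 (Cxcl15) for genotype after bleomycin, and -0.73 (Cxcl15) and 0.50 (Cxcl16) for the interaction. Without the 3 libraries against their recorded sex they were -0.087 (Cxcl1) and -0.062 (Cxcl5) for genotype after bleomycin and 0.46 (Cxcl15) and -1.65 (Cxcl12) for bleomycin in Ephb4 CKO mice. With the sorted runs in edgeR and DESeq2 they were 1.03 and 1.02 (Cxcl14) for bleomycin in Ephb4 control mice, -0.92 and -0.94 (Cxcl15) for genotype after bleomycin, and 0.54 and 0.50 (Cxcl2) and -0.57 and -0.58 (Cxcl15) for the interaction. For genotype after bleomycin, the values of Cxcl12 (-3.62 to -2.07 with 1 library left out) and Cxcl14 (-3.18 to -0.60) were negative throughout. Those of Cxcl2 (0.77 to 3.27) and Cxcl16 (0.65 to 1.02) were positive throughout.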
